A study of Mus musculus with 6 samples.

Results

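The galectins are a family of secreted and cytosolic lectins, and 5 of them (Lgals1, Lgals3, Lgals4, Lgals8 and Lgals9) were followed here together with Lgals3bp, a secreted glycoprotein that binds galectin-3. These 6 genes were chosen by name, by taking every probe set annotated to exactly 1 gene that was one of them, which gave 8 probe sets. The choice was made with earlier results of these data known. All 6 were among the 18193 genes measured, and none was lost to a filter, since no filter on low values was applied. Regulatory T (Treg) cells that lack Batf, an AP-1 family transcription factor, were compared with Treg cells that have it.

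Expression was profiled on 3 arrays of Batf+/+ Treg cells and 3 arrays of Batf-/- Treg cells. In both groups the mice were C57BL/6 and carried the FoxP3hCD2 allele, in which human CD2 reports Foxp3, and CD4+ hCD2+ cells were taken from lymph node and spleen and analysed fresh, without treatment. The labels name no Cre driver for the Batf-/- mice, so Batf was taken to be missing from all their cells and not from Treg cells alone. They give no age and do not say whether a triplicate stands for separate mice, so the p-values here reflect only how far these samples spread, and that spread may be technical. Values are log2 levels relative to the middle Batf+/+ array of each probe set, so they show differences between genotypes and not how abundant a transcript was. The RNA is of a bulk population, in which fewer cells that express a gene and less RNA per cell cannot be told apart.

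Galectins bind sugars that carry galactose, mostly lactosamine units at the ends of N-glycans and O-glycans. Prototype galectins such as galectin-1 have a single sugar-binding domain and pair up, the chimera galectin-3 joins such a domain to a long tail through which it forms oligomers, and tandem-repeat galectins (galectin-4, galectin-8 and galectin-9) link a pair of different domains in a single chain. By crosslinking glycoproteins they form lattices on the T cell surface that affect receptor signalling, adhesion and survival, and several also act inside the cell. Galectin-1 is known as a product of Treg cells that takes part in suppression, and galectin-3 is induced on T cell activation.

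Batf itself followed the labels on every array. Its levels were -0.13, 0 and 0.14 on Batf+/+ arrays 1, 2 and 3 and -3.13, -3.16 and -2.37 on the Batf-/- arrays, the decrease being smallest on Batf-/- array 3. Over all genes, 208 of 18193 (1.14%) passed a limma adjusted p of 0.05, 151 lower (0.830%) and 57 higher in Batf-/- cells. Fewer were called without Batf+/+ array 1 (109) or Batf+/+ array 2 (105), and 91 were higher with the replicate number as a block. Of genes called lower 94 were left without Batf-/- array 2, and between 31 and 36 were called higher without any 1 of the Batf+/+ arrays or Batf-/- array 1. An unadjusted p below 0.05 was found for 7.69% of all genes, and for 4.44% with a lower value in Batf-/- cells. The arrays of the genotypes did not overlap in 2191 genes (12.0%), and the median log2 difference was 0.0047. Of the genes that mark the sorted population, Foxp3 differed by -0.12 ± 0.08 on the log2 scale (SE, n = 3 per genotype, adjusted p = 0.892 by limma) and Il2ra by 0.21 ± 0.07 (adjusted p = 0.394). Of the 6 Treg markers listed 0 passed, by limma, with 2 at an unadjusted p below 0.05. Foxp3 and Cd3e (lower in Batf-/- cells) and Il2ra (higher) did not overlap between genotypes, while Cd4 and Ctla4 did. Such separation was seen in 12.0% of all genes. Ikzf2, the transcription factor Helios, named after its value was seen, read 0.0069, 0.099 and -0.15 on the Batf+/+ arrays and -0.41, -0.67 and -0.47 on the Batf-/- arrays, without overlap. It differed by -0.51 ± 0.10 on the log2 scale (SE, adjusted p = 0.0526 by limma), and 1 Treg marker was called lower with array weights and without the probe sets of smallest range. Centred values cannot show whether these markers were strongly present.

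Of the 6 genes, Lgals3 fell and the other 5 did not pass the test, with log2 differences between -0.20 and 0.10. The count of 1 in 6 stands beside 0.830% of all genes that fell. Since the 6 were chosen with earlier results of these data known, this count is a description and not a test. The median of the 6 was -0.15.

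Lgals3 encodes galectin-3, the chimera member, also known as the macrophage antigen Mac-2. Its single probe set read -0.013, 0 and 0.029 on Batf+/+ arrays 1, 2 and 3 and -2.11, -2.33 and -1.36 on Batf-/- arrays 1, 2 and 3. All 3 Batf-/- arrays therefore lay far below the narrow range of the Batf+/+ arrays. Batf-/- array 3, which had the highest Batf value of its group, also had the highest Lgals3 value of that group, and a link between them was not tested. Lgals3 was 3.84-fold lower in Batf-/- cells (95% interval 2.76 to 5.34), or -1.94 ± 0.21 on the log2 scale (SE, n = 3 per genotype, adjusted p = 0.00306 by limma). Only 10 of the 18193 genes had a lower log2 difference. Leaving out each array in turn moved it between -2.23 (without Batf-/- array 3) and -1.74 (without Batf-/- array 2), and the limma adjusted p was at most 0.0215.

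**Figure D1:**
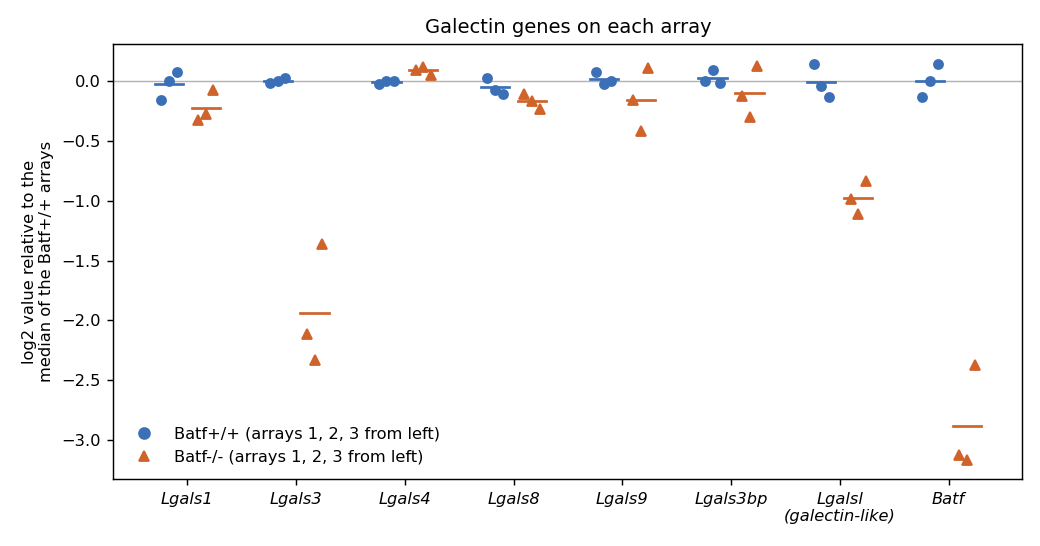
Log2 level of each galectin gene, Lgals3bp, the galectin-like gene Lgalsl and Batf, relative to the middle Batf+/+ array (y axis), on 3 Batf+/+ arrays (circles) and 3 Batf-/- arrays (triangles); horizontal bars are group means. Lgals3 lay between -2.33 and -1.36 on the Batf-/- arrays and Lgalsl between -1.11 and -0.83, while the remaining 5 genes of the 6 stayed between -0.42 and 0.13 on those arrays.

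The sequences just before the transcript starts of Lgals3 and of Lgalsl, the galectin-like gene that also fell, are shown because Batf acts at AP-1 elements. They were taken from RefSeq (GRCm38.p6), where 5 of the 6 genes had an entry. The motifs searched were TGANTCA, an AP-1 element, and GGGCGG, the GC box, on both strands within the 250 bases before the start. Capitals mark GC boxes, which here lie on the opposite strand and read CCGCCC. The stretch of Lgals3 lies on the plus strand at chr14:47373610-47373859 and that of Lgalsl on the minus strand at chr11:20831109-20831358.
Lgals3: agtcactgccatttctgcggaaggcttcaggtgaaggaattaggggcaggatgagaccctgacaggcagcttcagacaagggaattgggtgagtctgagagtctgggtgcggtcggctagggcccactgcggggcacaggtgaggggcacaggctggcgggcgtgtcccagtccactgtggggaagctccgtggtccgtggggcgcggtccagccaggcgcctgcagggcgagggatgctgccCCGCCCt
Lgalsl: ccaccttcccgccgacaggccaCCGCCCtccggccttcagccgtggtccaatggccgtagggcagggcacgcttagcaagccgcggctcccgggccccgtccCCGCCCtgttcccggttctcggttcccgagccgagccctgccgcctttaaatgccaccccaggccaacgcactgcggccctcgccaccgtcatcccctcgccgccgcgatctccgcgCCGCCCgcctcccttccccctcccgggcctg

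TGANTCA was absent from these stretches and from those of Lgals4, Lgals8, Lgals9 and Lgals3bp, and 6.75% of the 32851 promoters in the table held it. A GC box was found 1 time before Lgals3 and 3 times before Lgalsl, was not found before Lgals4, Lgals8, Lgals9 or Lgals3bp, and occurred in 32.7% of all promoters. Its presence did not follow the calls among the other genes searched, which are described below. Lgals7 and Grifin, which were not called, held 1 each, as did Itgb1 and Pdcd1, which fell. None was found before Lgals2, which was not called, or before Cd44 and Gcnt1, which fell. These matches describe the letters of a short window and say nothing about binding of Batf elsewhere at these genes.

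Lgals1 encodes galectin-1, the prototype member and the galectin most often tied to Treg suppression. The mean of its 2 probe sets was -0.15, 0 and 0.077 on the Batf+/+ arrays and -0.32, -0.27 and -0.073 on the Batf-/- arrays. Batf-/- array 3 lay inside the Batf+/+ range, so the groups overlapped. The log2 difference was -0.20 ± 0.10 (SE, adjusted p = 0.741 by limma), with a 95% interval from -0.42 to 0.02, and both probe sets gave nearly the same value, -0.21 and -0.19. The interval of Lgals3, from -2.42 to -1.47, lay wholly below it.

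The level of Lgals3 minus that of Lgals1 within each array compares these galectins directly, on the scale of log2 values centred for each gene. This quantity was 0.14, 0 and -0.048 on the Batf+/+ arrays and -1.79, -2.06 and -1.29 on the Batf-/- arrays, without overlap. Its mean differed by -1.74 between genotypes, with an exact two-sided permutation p = 0.1, the smallest that 3 against 3 arrays can give. Because Lgals1 differed little, this value largely repeats the fall of Lgals3 and is not independent of it.

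None of the tandem-repeat galectins Lgals9, Lgals8 and Lgals4 passed the test. Lgals9 encodes galectin-9, a ligand described for the receptor Tim-3 and inducible by interferon. It read 0.078, -0.023 and 0 on the Batf+/+ arrays and -0.16, -0.42 and 0.11 on the Batf-/- arrays. Batf-/- array 3 was the highest of all 6 and Batf-/- array 2 the lowest, and the log2 difference was -0.17 ± 0.12 (SE, adjusted p = 0.927 by limma, 95% interval -0.46 to 0.11). Leaving out Batf-/- array 2 gave -0.042, and leaving out Batf-/- array 3 gave -0.31.

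Lgals8 encodes galectin-8, which recognises sugars exposed on damaged vesicles and helps to target them for autophagy. The mean of its 2 probe sets was 0.030, -0.074 and -0.10406 on the Batf+/+ arrays and -0.10467, -0.16 and -0.23 on the Batf-/- arrays. The groups touched without overlapping, at Batf+/+ array 3 and Batf-/- array 1. The log2 difference was -0.12 ± 0.08 (SE, adjusted p = 0.908 by limma), its probe sets gave -0.12 and -0.11, and on each probe set alone the groups overlapped.

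Lgals4 encodes galectin-4, known mainly from intestinal epithelium, and was the only one of the 6 whose log2 difference was above 0. It read -0.025, 0 and 0.00064 on the Batf+/+ arrays and 0.099, 0.12 and 0.054 on the Batf-/- arrays, again without overlap. The log2 difference of 0.10 ± 0.07 (SE) had a limma adjusted p of 0.921 and a 95% interval from -0.06 to 0.26. The 3 non-overlapping members, Lgals3, Lgals4 and Lgals8, stand beside the 12.0% of all genes that separated in this way.

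Lgals3bp, which like Lgals9 is inducible by interferon, read 0, 0.093 and -0.015 on the Batf+/+ arrays and -0.12, -0.29 and 0.13 on the Batf-/- arrays. As with Lgals9, Batf-/- array 3 was the highest of all arrays and Batf-/- array 2 the lowest. The log2 difference was -0.12 ± 0.11 (SE, adjusted p = 0.978 by limma, 95% interval -0.37 to 0.12), which became -0.023 without Batf-/- array 2 and -0.23 without Batf-/- array 3. When every probe set was tested on its own, 1 of the 8 passed, that of Lgals3 (adjusted p = 0.00953 by limma), beside 0.713% of all 34945 probe sets.

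**Figure D2:**
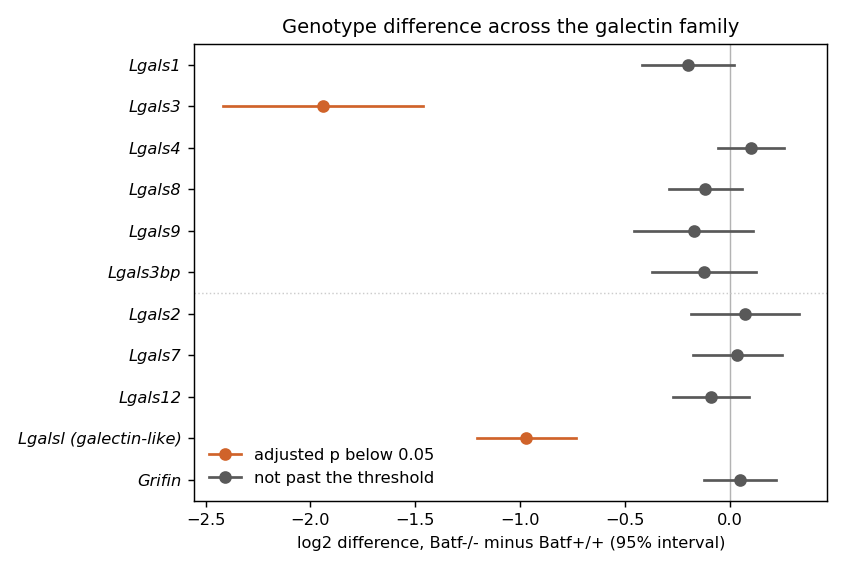
Log2 difference between Batf-/- and Batf+/+ Treg cells (x axis) with its 95% interval for the 6 genes (above the dotted line) and 5 further family genes (below it), n = 3 arrays per genotype. The intervals of Lgals3 (-2.42 to -1.47) and Lgalsl (-1.20 to -0.74) lay below 0, and those of the other 9 genes included 0.

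Of 5 further family genes that were measured, 1 fell, beside 0.830% of all genes, and 0 rose. Lgalsl, whose product is related to galectins but is not known to bind their sugars, read 0.15, -0.036 and -0.13 on the Batf+/+ arrays and -0.99, -1.11 and -0.83 on the Batf-/- arrays. It was 1.96-fold lower in Batf-/- cells (-0.97 ± 0.10 on the log2 scale, SE, adjusted p = 0.00288 by limma), and each of its 2 probe sets passed on its own, at -1.18 and -0.76. As for Lgals3, Batf-/- array 3 showed the smallest decrease. Lgals2 (0.07), the epithelial Lgals7 (0.03), the fat cell galectin Lgals12 (-0.09) and the lens gene Grifin (0.05) had small log2 differences, with limma adjusted p values of 0.978 to 0.99991. Those of Lgals2 and Lgals7 changed sign when single Batf-/- arrays were left out. Lgals6, a close copy of Lgals4, had no probe set named here, and a probe set of one could also take up signal of the other.

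None of the measured genes next to Lgals3 in the RefSeq order of protein-coding genes (GRCm38.p6) passed the test. Mapk1ip1l before it had a log2 difference of -0.035 ± 0.20 (SE, adjusted p = 0.99991 by limma), and Dlgap5 and Fbxo34 after it had differences of 0.0068 ± 0.11 and 0.042 ± 0.08 (adjusted p = 0.99991 for each). Around Lgalsl, the neighbours Sertad2, Aftph, Peli1 and Vps54 lay between -0.12 and -0.03, and 0 of them passed. These 7 neighbours were looked up after the values of Lgals3 and Lgalsl were known.

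The genes whose pattern over the 6 arrays was nearest to that of Lgals3 were Ctla2b, Klrg1 and Gzmb. The root mean square distance in log2 units over the 6 arrays was 0.20 for the protease inhibitor Ctla2b, 0.21 for the inhibitory receptor Klrg1 and 0.23 for granzyme B (Gzmb). Their levels on the Batf-/- arrays were -1.65, -2.05 and -1.35 for Ctla2b, -1.93, -2.35 and -1.81 for Klrg1 and -2.04, -2.12 and -1.89 for Gzmb. All 3 were lowest on Batf-/- array 2 and highest on Batf-/- array 3, the same order as for Lgals3. They were picked from all genes for closeness on these same arrays, so a like order largely follows from that choice.

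Galectins act through the glycoproteins they bind, and of 21 measured counter-receptors 3 fell, beside 0.830% of all genes, and 0 rose in Batf-/- cells. The median log2 difference of the list was -0.10, beside 0.0047 over all genes, and 15 of the 21 values were below 0. All gene lists here, this one included, were drawn up with earlier results of these data known. Their counts describe the lists and are not tests of them. Itgb1, the integrin chain that galectin-1 and galectin-3 bind on many cells, read 0.022, 0.092 and -0.052 on the Batf+/+ arrays and -1.13, -1.04 and -1.01 on the Batf-/- arrays. It was 2.12-fold lower (-1.08 ± 0.08 on the log2 scale, SE, adjusted p = 0.00033 by limma), although its 6 probe sets ran from -2.55 to -0.0051 and 3 of them passed on their own.

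Pdcd1, which encodes the inhibitory receptor PD-1, read -0.036, 0 and 0.096 on the Batf+/+ arrays and -1.06, -1.16 and -0.84 on the Batf-/- arrays. It was 2.06-fold lower (-1.04 ± 0.10 on the log2 scale, SE, adjusted p = 0.00138 by limma). Cd44, the hyaluronan receptor and a glycoprotein bound by several galectins, read between -0.00055 and 0.018 on the Batf+/+ arrays and -0.47, -0.68 and -0.76 on the Batf-/- arrays. Its log2 difference was -0.64 ± 0.09 (SE, adjusted p = 0.0106 by limma), with 2 of its 4 probe sets called on their own and 1 near 0 (-0.06). The adjusted p of Cd44 was 0.0543 without Batf+/+ array 1, 0.0590 without Batf+/+ array 2, 0.0525 without Batf-/- array 2 and 0.101 with a trend and robust prior.

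The inhibitory receptor genes Havcr2 and Lag3 did not pass the test. Havcr2, which encodes Tim-3, read -0.20, 0 and 0.16 on the Batf+/+ arrays and -0.37, -0.66 and -0.26 on the Batf-/- arrays. The groups did not overlap, yet the log2 difference of -0.41 ± 0.13 (SE) had a limma adjusted p of 0.308. Lag3, an inhibitory receptor that galectin-3 can bind, read 0.20, 0 and -0.032 on the Batf+/+ arrays and 0.62, 0.23 and 0.62 on the Batf-/- arrays. Its groups did not overlap either, and the log2 difference was 0.44 ± 0.12 (SE, adjusted p = 0.219 by limma), the highest value of the list. Tnfrsf9 (4-1BB), named after its value was seen, had a log2 difference of -0.35 (adjusted p = 0.127). That became -0.41 with array weights (adjusted p = 0.0396 by limma), and its 3 probe sets ran from -0.64, which passed (adjusted p = 0.0287), to 0.04.

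**Figure D3:**
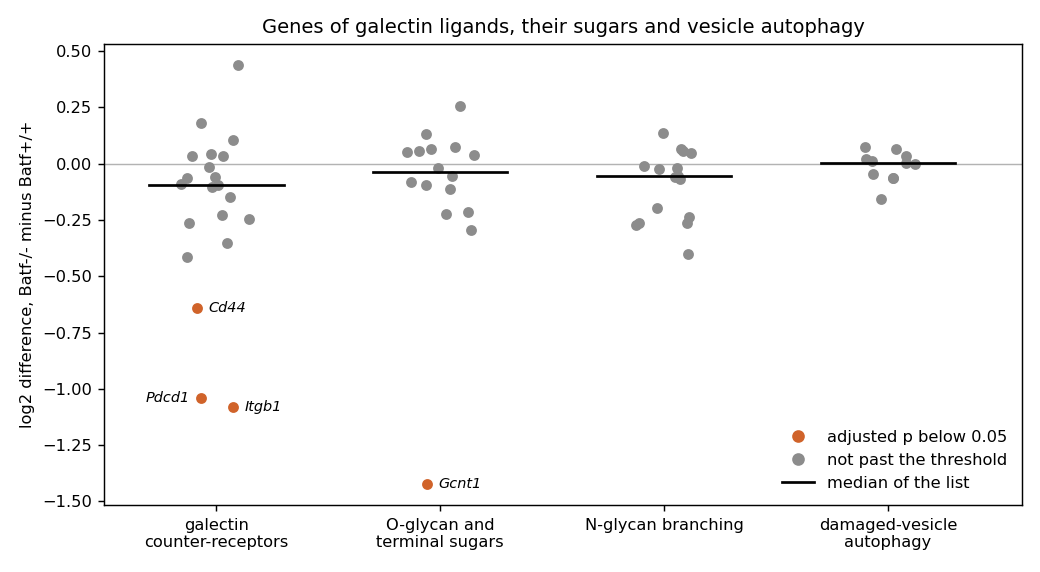
Log2 difference between Batf-/- and Batf+/+ Treg cells (y axis) for each measured gene of 4 lists (x axis), with horizontal spread added for legibility; black bars are list medians. The genes that passed the threshold were Itgb1, Pdcd1 and Cd44 among counter-receptors and Gcnt1 among O-glycan genes, and list medians lay between -0.10 and 0.0047.

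The sugars on those glycoproteins are built by Golgi enzymes. Of 16 measured genes for O-glycans and terminal sugars 1 fell, beside 0.830% of all genes, and 0 rose, with a median of -0.04. That gene was Gcnt1, the enzyme that starts the core 2 branch of O-glycans, on which lactosamine chains bound by galectin-1 can be built. It read 0.15, 0 and -0.33 on the Batf+/+ arrays and -1.31, -1.36 and -1.79 on the Batf-/- arrays. Here Batf-/- array 3 was the lowest, unlike for Lgals3. Gcnt1 was 2.68-fold lower (-1.42 ± 0.16 on the log2 scale, SE, adjusted p = 0.00331 by limma), a mean of probe sets at -2.29 and -0.56, of which only the former passed on its own.

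N-glycan branching by the Mgat enzymes sets how many lactosamine ends a glycoprotein offers to galectins. Of 16 measured genes of this list 0 passed over all genes, by limma, while 5 had an unadjusted p below 0.05, all with lower values, beside 4.44% of all genes. The median was -0.06. Mgat5, which adds a branch that galectin-3 favours, read 0.13, -0.069 and -0.062 on the Batf+/+ arrays and -0.24, -0.18 and -0.29 on the Batf-/- arrays. Its log2 difference was -0.24 ± 0.08 (SE, adjusted p = 0.428 by limma), and its 3 probe sets lay between -0.46 and 0.018. Man2a2, named after its value was seen, passed only when the probe sets with the smallest range were left out (-0.50, adjusted p = 0.0249 by limma, against -0.26 and 0.195 with all of them).

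Galectin-8 and galectin-3 mark ruptured vesicles for autophagy receptors, and 0 of 11 measured genes of that route passed, by limma, with 0 at an unadjusted p below 0.05. Their median log2 difference was 0.0047 and they lay between -0.16 and 0.07.

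**Figure D4:**
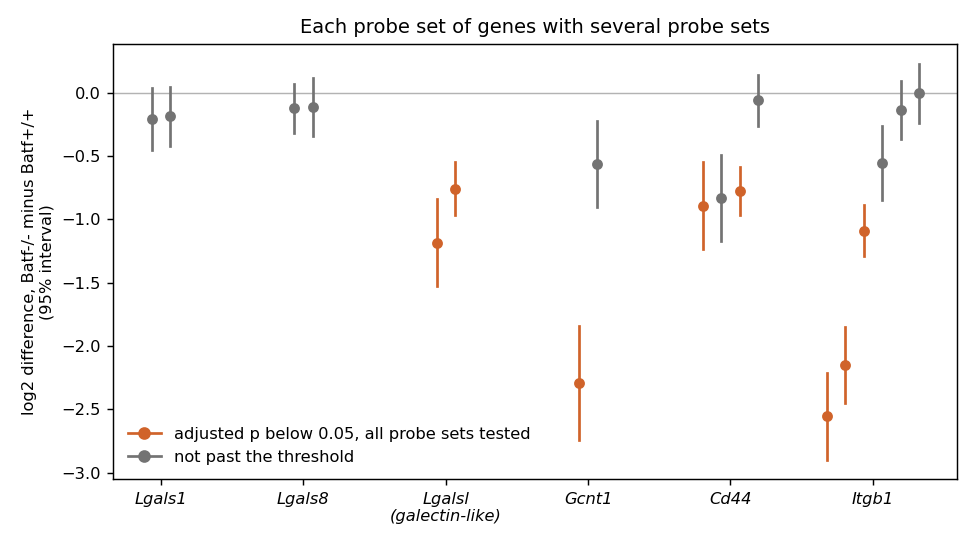
Log2 difference between Batf-/- and Batf+/+ Treg cells (y axis) with its 95% interval for every probe set of 6 genes that have several (x axis), n = 3 arrays per genotype. The probe sets of Lgals1 and Lgals8 lay close together, both of Lgalsl passed the threshold, and those of Gcnt1 (-2.29 and -0.56), Cd44 and Itgb1 (-2.55 to -0.0051) were spread.

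Galectin-3 is abundant in macrophages, galectin-1 in stroma and galectin-4 in gut epithelium, so markers of these and other cells were read on the same arrays. Of 15 macrophage and monocyte markers 0 passed, by limma, with 0 at an unadjusted p below 0.05, and their median log2 difference was 0.08. Centred values cannot show whether these markers were above background. The mean of these markers lay between -0.07 and 0.13 on the Batf+/+ arrays and between -0.13 and 0.34 on the Batf-/- arrays. In each genotype array 3 was the highest, and Batf-/- array 3 was also the Batf-/- array with the highest Lgals3, a part in the result that was not tested. Of 54 markers in 6 lists of other cell types, 1 passed, the adhesion molecule Epcam, a share near the 1.14% of all genes. Epcam had a log2 difference of -0.53 ± 0.08 (SE, adjusted p = 0.0119 by limma), with probe sets at -0.92 and -0.14, and it was no longer called without Batf+/+ array 1 (adjusted p = 0.0654), Batf+/+ array 2 (0.0725) or Batf-/- array 2 (0.0542), after quantile normalization (0.140) or with a trend and robust prior (0.174). The other 7 epithelial markers did not pass. Dendritic cell (0.10), B cell (0.09), NK and CD8 (0.02) and stroma (0.0017) markers had the list medians given in brackets, and 0 genes of these lists passed, by limma, with 3 at an unadjusted p below 0.05 in total, beside 7.69% of all genes. The list mean on Batf-/- array 3 was 0.21 for dendritic cell, 0.20 for B cell and 0.15 for NK and CD8 markers, the highest of the 6 arrays in each list, as it was for macrophage markers. With probe sets that name several genes added, 1 NK and CD8 marker was called lower.

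**Figure D5:**
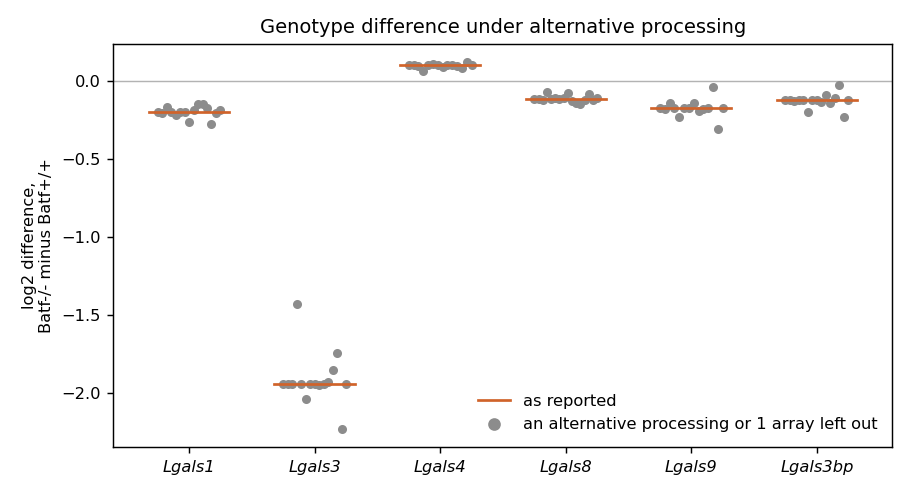
Log2 difference between Batf-/- and Batf+/+ Treg cells (y axis) for the 6 genes (x axis), as reported (bars) and under the alternatives that gave the gene a value, those with 1 array left out included (points). Lgals1 and Lgals9 had no value without probe sets of shared sequence, and Lgals4 none without the probe sets of smallest range. Lgals3 ranged from -2.23 to -1.43, and the plotted values of the other 5 genes kept their sign and stayed between -0.31 and 0.12.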

How the data were processed

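Biotin-labelled targets were prepared from total RNA with a 3' in vitro transcription kit, per the labels' protocols. The authors summarised probe sets to the deposited log2 values by RMA, as the submitters' processing notes state without a version or log base. Base 2, which RMA gives, was assumed. In all 45101 probe sets the middle of the 3 Batf+/+ values was exactly 0, a centring that no label describes and that removes absolute levels and signal over background.

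Probe sets with exactly 1 gene in the platform annotation (34945) were averaged per gene (18193 genes), since centred values leave no level by which to choose one. Genotypes were compared with limma 3.58.1 in R 4.3.3 (lmFit, eBayes), genotype the only term, Benjamini-Hochberg adjustment over all genes, and calls at an adjusted p below 0.05. The fit was tested on simulated data. The number of arrays limits the precision.

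Members and gene lists were chosen with earlier results of these data known. The text names the 6 genes, all measured genes of the further galectin list, Batf, Havcr2, Cd44, Lag3, Mgat5, Foxp3 and Il2ra whatever their values, up to 4 called genes of each list, and the 3 genes nearest to each called member. Lists covered counter-receptors, both glycan routes, vesicle autophagy, Treg markers and 6 other cell types (macrophage, dendritic, B, NK and CD8, stroma, epithelium).

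Titles of both genotypes share numbers 1 to 3. Once group means were subtracted, arrays with the same number correlated over genes (0.407, 0.154 and 0.413). On this basis alone the numbers were treated as pairs in an alternative fit, with the number as a block. The fit without this block is the one reported, so its SEs, intervals and p-values leave any pairing out, as does the permutation test. Other alternatives concerned scaling, probe set choice, variance model, filtering and leaving out each array.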

Additional observations from a re-analysis of the deposited data

How the results depend on the processing

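Each of the 6 genes kept its direction and its side of the threshold under every alternative that gave it a value (Lgals1 and Lgals9 had none without probe sets of shared sequence, Lgals4 none without the probe sets of smallest range), and Lgals3 stayed the only 1 of the 6 called. Its log2 difference was -1.43 after quantile normalization, which sets the centred Batf+/+ arrays and the Batf-/- arrays to 1 distribution. With the replicate block it remained -1.94 (limma adjusted p = 0.00422), and the block changed no other call among the 6. Lgalsl, Itgb1 as a gene mean, Pdcd1 and Gcnt1 as a gene mean also stayed called throughout.

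Counts over all genes depended more on the processing. From 208 they became 81 (58 lower, 23 higher) after quantile normalization and 50 (47 lower, 3 higher) with a trend and robust prior, whose trend uses means of centred values. They became 293 (91 higher) with the replicate block, 287 (90 higher) without the probe sets of smallest range and 277 with array weights. Leaving out 1 array gave 105 to 192 genes, 73 to 141 lower and 31 to 51 higher. Under the same filter by range 1 N-glycan gene was called, Man2a2. Leaving out 1 array moved Lgals2 between -0.014 and 0.19 and Lgals7 between -0.016 and 0.13, single probe sets of Mgat5 and Tnfrsf9 gave 0.018 and 0.041, and none of these was called. The cause of these shifts was not tested. Signal over background is unknown, so a small difference of a dim gene cannot be read as an unchanged level.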
